A study of Mus musculus with 45 samples.

Results

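The nuclear genes for the subunits of the oxidative phosphorylation chain were followed through the differentiation of male mouse ESCs. Members were the genes whose symbols begin with Ndufa, Ndufb, Ndufc, Ndufs or Ndufv and a digit, with Uqcr, with Cox4 to Cox8 or with Atp5, provided that their mean over the 45 libraries was at least 1 CPM (a gene's count relative to all counts of its library, on a scale of 1000000). Of 34937 genes with a symbol, 80 matched, the assembly factor Atp5sl was left out, and 74 of the remaining 79 reached this level. They comprise 37 genes of complex I, 8 of complex III, 13 of complex IV and 16 of complex V. The lowest genes inside the limit were Ndufa4l2 at a mean of 2.18 CPM and Atp5s at 2.83 CPM, and those just outside were Cox7b2 at 0.915 and Cox4i2 at 0.250 CPM. Cox6a2, Cox8b and Cox8c were the other 3 genes below it. Symbols set the complexes, so Ndufa4 is counted under complex I although its protein is known in association with complex IV. Cyc1, Ndufab1 and Usmg5, whose products also belong to the chain, carry symbols that the choice does not take.

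The cells were wild-type E14tg2a ESCs (the XY1 line, 129/Ola background), kept either in 2iL, which is medium with inhibitors of MEK and GSK3 plus LIF, or in SL, which is serum plus LIF. Before differentiation the cells spent at most 3 passages in 2iL, and every library comes from this 1 line. Cells of either origin were differentiated as embryoid bodies floating in serum without LIF (serum), as monolayers on gelatin with Fgf2 and ActivinA (FA), or as monolayers in the same serum-free N2B27 medium without them (serum-free). The labels call these courses EB, EpiSC and Neural. RNA was collected at days 0, 1, 1.5, 2, 2.5, 3, 5 and 7, with 1 library for each medium, course and day, and a single SL library at day 0 serves all 3 courses. Of these, 23 libraries are from 2iL and 22 from SL, and day 5 of FA from 2iL is not analysed here.

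Complex I takes electrons from NADH, complex III passes them from ubiquinol to cytochrome c, and complex IV passes them on to oxygen. All of these pump protons across the inner mitochondrial membrane, and complex V, the ATP synthase, lets the protons flow back to make ATP. Most subunits are encoded in the nucleus and a small core in the mitochondrial genome, so each complex mixes products of both. Naive pluripotent cells are known for active mitochondrial respiration, and primed pluripotent cells for a more glycolytic metabolism. Some complex IV subunits have second genes known from heart and skeletal muscle (Cox6a2, Cox7a1, Cox8b) or from testis (Cox6b2, Cox7b2, Cox8c).

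Between 13093084 and 39803924 counts fell on genes per library (median 18222577). The 8 serum libraries from 2iL had a higher median, 34490371 against 17297266 in the other 37. Among the others, the serum library from SL at day 2 was as deep, with 37070726 counts. The members took 0.528% to 0.969% of the counts of a library. In the shallowest library 3 counts correspond to 0.229 CPM, and levels near this value carry large counting error. From here on, CPM are scaled by TMM factors, which adjust the library totals, so sums in CPM differ from these shares of counts. Because 1 library stands for each medium, course and day, the 3 courses served as the replicates of a day. In the fits of days, and of media from day 1 on, mean differences between courses were taken out. Their p-values rest on the spread that remained, pooled over all libraries of the fit. Where courses were compared, the groups of 1 medium and day served as the replicates. The labels and markers went together: 8 of 8 naive pluripotency genes fell between day 0 and day 7 from 2iL, and their summed level went from 4299 to 4648 CPM at day 0 to 149.5 to 263 CPM at day 7. In whole cultures, fewer cells of a type and less RNA per cell cannot be told apart.

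From 2iL, the summed level of the members went down in every complex. The mean log2 ratio of these sums was lowest for the ATP synthase. By the median log2 difference over genes between day 0 and day 7, however, complexes III and IV fell more than complex V. All 74 together took 8412 to 10014 CPM in the 3 libraries of day 0, with a mean of 9372 CPM ± 847 (SD, n = 3), and 5413 CPM ± 222 at day 7 (5237 to 5662 CPM). The 3 day 7 libraries were all below the 3 day 0 libraries. Complex I went from 1967.5 ± 163 to 1317 ± 35.5 CPM, which is a log2 ratio of -0.58 ± 0.12 (SD over the 3 courses). The log2 ratio was -0.73 ± 0.09 for complex III and -0.73 ± 0.10 for complex IV. Complex V had the highest sum, with 5065 ± 475 CPM at day 0 and 2689.6 ± 175 CPM at day 7, and the log2 ratio was -0.91 ± 0.13. Atp5a1 and Atp5b, the α and β subunits that form the catalytic head of the enzyme, made up 62.4% to 68.0% of the complex V sum in every library. From SL, the single day 0 library held 7857 CPM, the day 1 libraries 7787 ± 239 CPM and the day 7 libraries 5332 ± 358 CPM. The day 7 sums from both media overlapped, while the day 0 sum of all 74 was higher in all 3 libraries from 2iL than in the library from SL. By complex, this held for III and V only. The serum library from 2iL was below the SL library in complex I (1782 against 1831 CPM) and in complex IV (1367 against 1417 CPM).

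**Figure D1:**
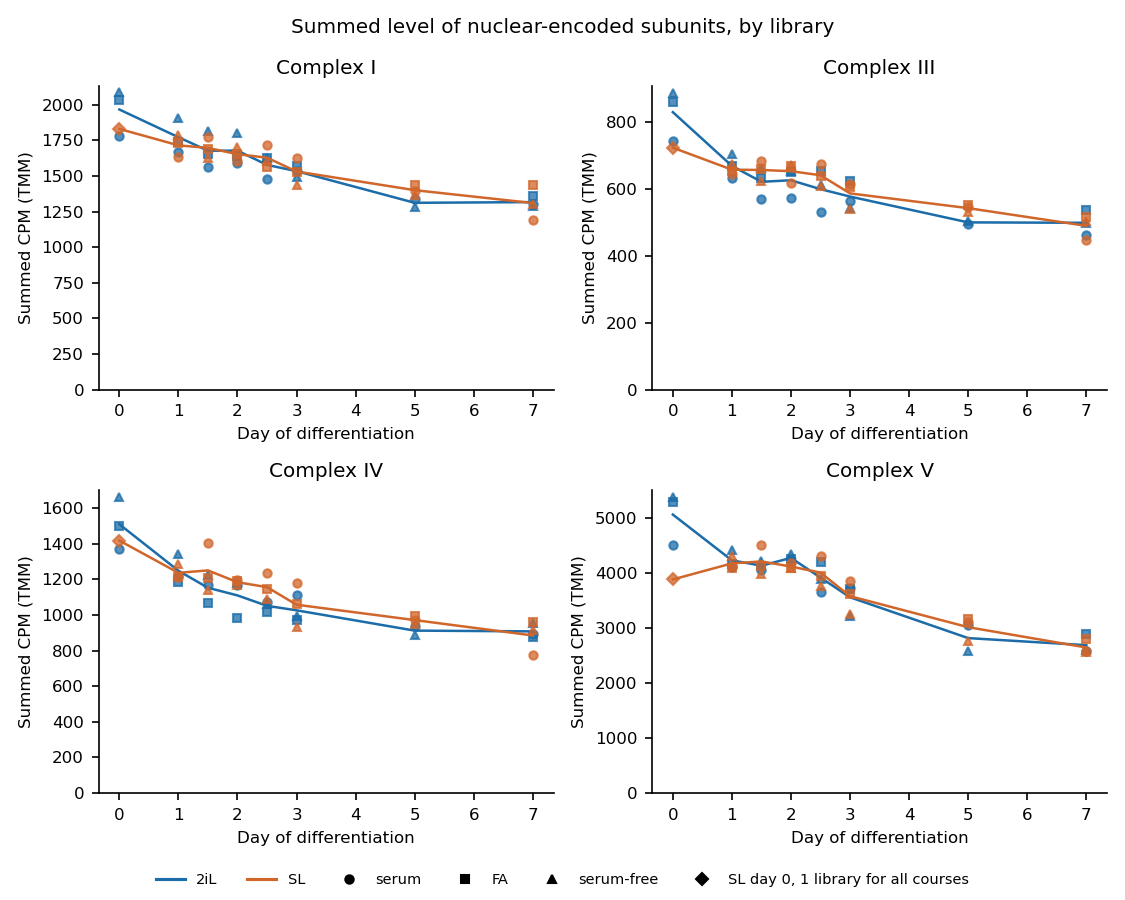
Summed level of the members of complexes I, III, IV and V (vertical axis, TMM-scaled CPM) against the day of differentiation, with a point for each library (colour for the medium, shape for the course, a diamond for the single SL library at day 0) and a line for the mean of each medium. The sums of complex V start between 4518 and 5380 CPM in 2iL and end between 2582 and 2892 CPM, and the points of both media overlap at day 7.

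Within a complex, the genes had very different levels, which were compared per kilobase of the transcript and as means over all libraries. The median was 43.1 CPM per kilobase in complex I, 105 in complex III, 119 in complex IV and 135 in complex V. Atp5b was the highest member of complex V with 817 CPM per kilobase, and Atp5s, which encodes a coupling factor of the synthase, was the lowest with 1.89, so they differed 432 times. In complex IV the span ran from Cox7c, a small subunit, at 297 CPM per kilobase to Cox7a1 at 10.5. Complex I, as set by symbols, ran from Ndufa4 at 150.4 to its paralogue Ndufa4l2 at 2.31 CPM per kilobase. The narrowest span was that of complex III, where Uqcrh, the hinge protein, had 140.5 CPM per kilobase and Uqcrq, another small subunit, had 22.6. These spans depend on the length used: with the joined length of all exons the highest and lowest genes differed 27.7 times in complex I, 15.9 in complex III and 268 in complex V, and Ndufb9, Uqcrb and Cox8a were the highest of complexes I, III and IV.

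Against day 0 in 2iL, more members were lower on the later days, though not at every step, and the share of all genes lower rose too. The test was edgeR's quasi-likelihood test, here and below, with p-values adjusted over all genes tested by the Benjamini-Hochberg method. At day 1, 25 members were lower and 1 was higher, beside 14% of all genes called lower and 14.6% called higher, and the median log2 difference was -0.20 over the members and 0.02 over all genes. The count of lower members was 30 at day 1.5, where 18.6% of all genes were lower, 27 at day 2 (20.8%) and 35 at day 2.5 (22.3%). It was 42 at day 3 (24.1%), 59 at day 5 (25.3%) and 58 at day 7 (29.9%), and no member was called higher from day 1.5 on, although 33.8% of all genes were at day 7. At day 7 the median was -0.56 over the members and 0.04 over all genes. Of the 58 lower members, 9 had fallen by at least 1 on the log2 scale, 35 by 0.5 to 1 and 14 by less than 0.5. In all 3 courses 65 of the 74 members were below day 0 at day 7, as were 36.8% of all genes. The highest mean over courses lay at day 0 for 53 members, and the lowest lay at day 7 for 35 and at day 5, which has libraries of 2 courses only, for 28. The day 1 count depended on the courses used and was 4 without FA, 10 without serum-free and 11 without the course as a block. The day 2 count was 14 without FA. The shares of all genes called in these fits are not given here, so the smaller counts are not read as a trait of the members.

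The subunits of complex I mostly had moderate changes. By day 7, 6 of the 7 nuclear-encoded core subunits, the catalytic part of the enzyme, were lower than at day 0. So were 23 of the 30 genes counted by symbol as accessory subunits, Ndufa4 and Ndufa4l2 among the 23, with 29.9% of all genes lower. Ndufs8, which carries iron-sulphur clusters, had 35.3, 36.0 and 47.4 CPM at day 0 in the serum, FA and serum-free courses, and 16.8, 22.4 and 17.3 CPM at day 7. The groups did not overlap, and the log2 change was -1.003 ± 0.157 (SE, adjusted p = 4.4e-05). Ndufb10, an accessory subunit of the membrane arm, went from 42.4 to 47.4 CPM at day 0 to 18.9 to 23.5 CPM at day 7 (log2 change -1.003 ± 0.0915, adjusted p = 1.69e-07). Ndufs3, the one core subunit that was not called, had 43.1, 51.5 and 54.0 CPM at day 0 and 40.9, 42.0 and 38.3 CPM at day 7 (-0.22 ± 0.104, adjusted p = 0.0716). The accessory genes that were not called were Ndufa1, Ndufa2, Ndufa6, Ndufa8, Ndufb3, Ndufb11 and Ndufs4, with log2 differences from -0.37 to 0.05. Ndufa1 and Ndufb11 are 2 of the 3 X-linked members, and the third, Cox7b, was lower (-0.78).

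Ndufa8, an accessory subunit of the intermembrane-space side, was the only member called higher at day 1. It had 18.0, 17.0 and 20.6 CPM at day 0 in the serum, FA and serum-free courses and 22.8, 24.8 and 30.9 CPM at day 1. All day 1 libraries were above all day 0 libraries, with a log2 change of 0.50 ± 0.117 (edgeR's quasi-likelihood test, adjusted p = 0.00469). By day 7 the 3 libraries were at 15.5, 19.8 and 20.7 CPM and overlapped with day 0. The call at day 1 was lost without FA (adjusted p = 0.0618), without serum-free (adjusted p = 0.133) and without the block (adjusted p = 0.0798).

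Ndufa4l2, the low paralogue of Ndufa4 that is known as a target of hypoxia-inducible factors, was irregular. In 2iL it had 1.57, 3.92 and 2.22 CPM at day 0, 1.71, 0.127 and 0 CPM at day 1, and 1.49, 0.624 and 0.467 CPM at day 7. On these days the serum course stayed near its day 0 level while the other courses were lower. The test called it lower at day 1 (log2 change -3.21 ± 0.888, adjusted p = 0.0127) and at day 7 (-2.13 ± 0.832, adjusted p = 0.0343), where the call was lost without FA (adjusted p = 0.278), without serum-free (0.113) and without the block (0.341). Its highest value, 15.5 CPM, was in the serum course from SL at day 3, with 2.67 and 2.08 CPM in the FA and serum-free courses of that day. Ndufa4 had 64.4, 73.0 and 80.4 CPM at day 0 in 2iL and 48.1, 52.3 and 61.2 CPM at day 7 (-0.37 ± 0.0878, adjusted p = 0.00177).

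In complex III the small subunits were lower at day 7 and 2 of the 3 larger ones were not called. All 5 small subunits passed the test, with log2 changes from -1.43 to -0.29, beside 29.9% of all genes lower. Uqcr10, a small membrane subunit, had 63.5, 90.9 and 92.2 CPM at day 0, 44.5, 50.02 and 59.2 CPM at day 1 and 23.5, 33.2 and 30.3 CPM at day 7. The days did not overlap, and the log2 change was -0.65 ± 0.117 at day 1 (adjusted p = 0.000679) and -1.43 ± 0.12 at day 7 (adjusted p = 6.47e-08), a 2.70-fold fall. Uqcrb, known as a ubiquinone-binding protein, had 120, 140 and 107 CPM at day 0 and 48.0, 61.2 and 48.7 CPM at day 7 (-1.15 ± 0.103, adjusted p = 1.3e-07). Uqcrc1, a core protein, fell as well (-0.93 ± 0.0837, adjusted p = 1.38e-07). Its partner Uqcrc2 had a difference of -0.16 ± 0.0799 (adjusted p = 0.0888), and Uqcrfs1, the Rieske iron-sulphur protein that hands electrons to cytochrome c1, one of -0.17 ± 0.107 (adjusted p = 0.184). The members of this 1 enzyme thus ranged from no called change to a 2.70-fold fall.

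Complex IV held the member with the largest change, Cox7a1, the form of subunit VIIa known from heart and skeletal muscle. On GRCm38 the gene (ENSMUSG00000074218) lies on chromosome 7 from 30184144 to 30186078 on the positive strand. In 2iL it had 17.0, 19.4 and 22.6 CPM at day 0 in the serum, FA and serum-free courses, 5.605, 8.51 and 8.96 CPM at day 1 and 1.85, 2.52 and 3.03 CPM at day 2. At day 7 it had 0.846, 1.39 and 1.75 CPM, and none of these 4 days overlapped with another. The log2 change was -1.35 ± 0.263 at day 1 (adjusted p = 0.0012), -2.98 ± 0.282 at day 2 (adjusted p = 7.45e-07) and -3.86 ± 0.296 at day 7 (adjusted p = 2.7e-08), a 14.5-fold fall. The day 1 call had an adjusted p of 0.0515 without FA. The bases upstream of its start are printed since this gene fell most. RefSeq gives them on GRCm38.p6 as chr7:30183994-30184143, positive strand, which is the 150 bases just before the gene start given above and 177 to 28 bases before the start in RefSeq, and the letters of the motifs described below are not among them.
Cox7a1 upstream: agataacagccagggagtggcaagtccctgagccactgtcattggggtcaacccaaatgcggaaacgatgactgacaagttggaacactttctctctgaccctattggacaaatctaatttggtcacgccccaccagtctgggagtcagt

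Cox7a2, the general form of subunit VIIa, changed less, so the pair shifted. It had 18.8, 18.7 and 35.5 CPM at day 0 in 2iL and 10.3, 15.3 and 19.5 CPM at day 7, with overlap between the days (-0.60 ± 0.167, adjusted p = 0.00519). Per length, Cox7a1 made up 58.5% of the pair at day 0 in 2iL (51.6% to 63.5% over the 3 libraries), 38.9% at day 1, 17.7% at day 2 and 12.8% at day 7. In SL it was 22.6% at day 0, 23.03% at day 1 and 16.3% at day 7. Markers of muscle and heart summed to 1.33 to 3.72 CPM at day 0 in 2iL, where Actc1 was at 0 in every library, and to 12.8 to 23.3 CPM at day 7. Actc1 made up most of the later sum (a mean of 12.0 CPM), while Tnnt2 went from a mean of 0.674 to 0.400 CPM and Myl7 from 1.19 to 0.404 CPM. In the SL library of day 0, with 4.96 CPM of Cox7a1, they summed to 2.59 CPM. The part of these markers in the result was not tested.

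Cox6b2, the form of subunit VIb known from testis, fell and came back. In 2iL it had 10.9, 15.7 and 18.3 CPM at day 0, 7.26, 5.83 and 7.49 CPM at day 2 and 14.01, 16.5 and 21.1 CPM at day 7. Day 2 lay below both other days, with a log2 change from day 0 of -1.05 ± 0.202 (adjusted p = 0.000579), and day 7 overlapped with day 0 (0.28 ± 0.198, adjusted p = 0.232). Cox6b1, the general form, went from 157, 170 and 161 CPM to 78.8, 88.4 and 90.7 CPM at day 7 (-0.86 ± 0.0776, adjusted p = 1.56e-07). Cox6b2 made up 10.8% of this pair per length at day 0 in 2iL, 9.69% at day 2 and 20.9% at day 7.

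Of the 11 other subunit genes of complex IV, 10 were lower at day 7, where 29.9% of all genes were lower, and their log2 differences ran from -1.22 to -0.40. Cox5a, a subunit on the matrix side, had 129, 157 and 156 CPM at day 0, 81.1, 106 and 96.5 CPM at day 1 and 55.4, 68.3 and 57.9 CPM at day 7. The 3 days did not overlap, with changes of -0.62 ± 0.0798 at day 1 (adjusted p = 3.59e-05), -1.06 ± 0.0805 at day 2 (8.47e-08) and -1.22 ± 0.0808 at day 7 (5.78e-09). Cox6a1 had 111, 105 and 144 CPM at day 0 and 46.7, 46.2 and 89.8 CPM at day 7 (-0.95 ± 0.162, adjusted p = 9.98e-05). Cox4i1, the subunit through which ATP is known to slow the enzyme, had 211, 242 and 268 CPM at day 0 and 145, 163 and 176 CPM at day 7 (-0.51 ± 0.0687, adjusted p = 9.98e-06). Cox7b (-0.78 ± 0.12, adjusted p = 3.61e-05) and Cox8a (-0.83 ± 0.106, adjusted p = 5.75e-06) were also lower. The exception was Cox7a2l, known as a supercomplex assembly factor, with 73.2, 84.1 and 98.9 CPM at day 0 and 157, 89.6 and 81.1 CPM at day 7 (0.38 ± 0.185, adjusted p = 0.081), where the serum library alone lay above day 0.

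Of the forms below the level limit, 3 had small shares of their pairs. Per length and in every library, Cox4i2 stayed at or under 0.958% of its pair with Cox4i1, Cox6a2 at or under 1.19% of its pair with Cox6a1 and Cox8c at or under 0.208% of its pair with Cox8a. Cox8b had 1 count in all 45 libraries. Cox4i2 was called higher at day 7 than at day 0 in 2iL (edgeR, log2 change 2.12 ± 0.897, adjusted p = 0.0486), on 60 and 9 reads. Its shares of the pair overlapped, with 0.0604% to 0.958% at day 7 and 0% to 0.0989% at day 0. Cox7b2, the testis form of subunit VIIb, had 2.17, 1.40 and 1.24 CPM at day 0 in 2iL, 3.66, 2.29 and 2.37 CPM at day 1 and 0.0249, 0.144 and 0.175 CPM at day 7. The day 7 values rest on 7 reads in all and lay below all values of day 0 (fitted log2 change -3.87 ± 0.628, adjusted p = 6.12e-05). Per length it took 2.51% of its pair with Cox7b at day 0, 5.22% at day 1, 7.36% at day 1.5 (5.06% to 9.37%) and 0.33% at day 7. In SL it had 0.369 CPM at day 0.

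**Figure D2:**
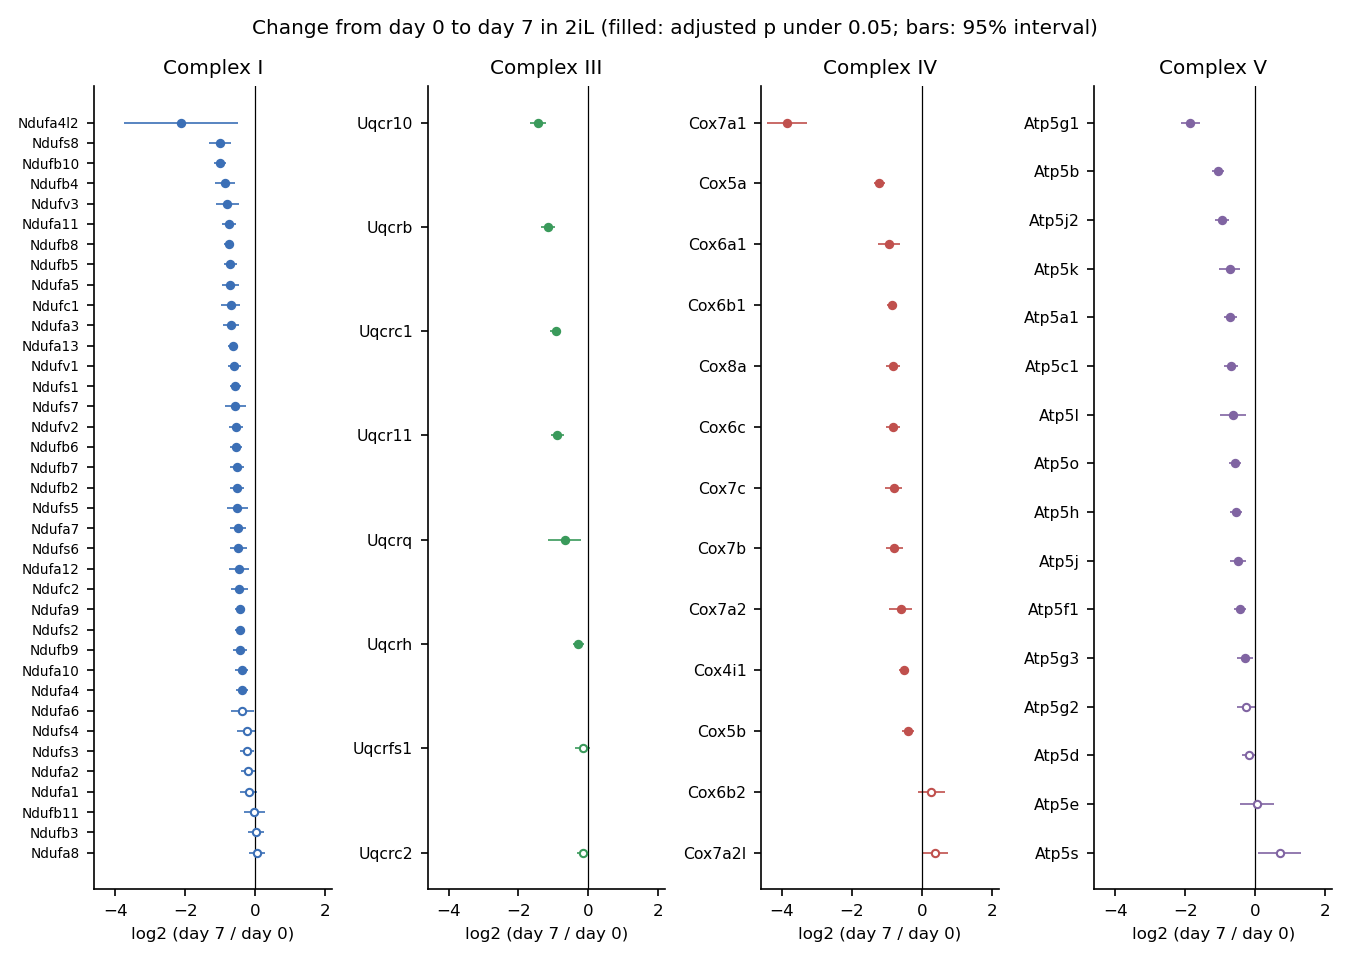
Log2 difference between day 7 and day 0 in 2iL (horizontal axis) of each of the 74 members, 1 panel per complex, with bars for the approximate 95% interval and filled points for an adjusted p under 0.05. The 58 filled points all lie left of 0, with Cox7a1 at -3.86 the farthest, and the highest unfilled point is Atp5s at 0.70.

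In the ATP synthase, Atp5g1 had the largest change of the 3 genes for the c ring, and the differences between these genes were not tested. Atp5g1, Atp5g2 and Atp5g3 encode the same mature c subunit, the rotor through which protons pass, with different import sequences. Atp5g1 had 263, 284 and 299 CPM at day 0 in 2iL in the serum, FA and serum-free courses and 56.6, 80.2 and 88.2 CPM at day 7. All day 7 libraries were far below day 0, with a log2 change of -1.85 ± 0.137 (adjusted p = 1.76e-08), a 3.62-fold fall. Atp5g2 had 60.3, 53.5 and 78.2 CPM at day 0 and 60.4, 46.1 and 45.5 CPM at day 7, which overlapped (-0.25 ± 0.14, adjusted p = 0.125). Atp5g3 had 83.1, 87.7 and 112 CPM at day 0 and 60.8, 79.8 and 80.7 CPM at day 7 (-0.29 ± 0.12, adjusted p = 0.0437). That last call was lost without any 1 of the courses (adjusted p from 0.0783 to 0.106) and without the block (0.200). The 3 genes summed to 440.0 CPM at day 0 and 199 CPM at day 7, and the share of Atp5g1 went from 64.2% (61.1% to 66.8%) to 37.3% (31.8% to 41.2%). Between these days it took 65.0% at day 1 and 55.9% at day 2, then 45.3% of the sum at day 3 and 38.1% at day 5. In SL it was 51.6% in the single library of day 0, 60.4% at day 1 and 37.4% at day 7. Of the main transcript of Atp5g1, 69.0% also matches Gm10039 at an identity of at least 95%, and all of Atp5g2 matches another gene, so reads could be split or lost there.

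Atp5g3 was higher at day 2.5 than at day 1 in cells from SL. It had 78.8, 86.2 and 89.0 CPM at day 1 and 126, 121 and 112 CPM at day 2.5, with no overlap (0.50 ± 0.130, adjusted p = 0.0048), beside 13.5% of all genes higher. From 2iL it had 67.6, 70.1 and 86.5 CPM at day 1 and 79.1, 111 and 126 CPM at day 2.5, so each course was higher at day 2.5 than at day 1 there too. These days were tested in 2iL against day 0 and neither was called (-0.31 ± 0.12 at day 1 with an adjusted p of 0.0629, and 0.18 ± 0.119 at day 2.5 with an adjusted p of 0.219).

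**Figure D3:**
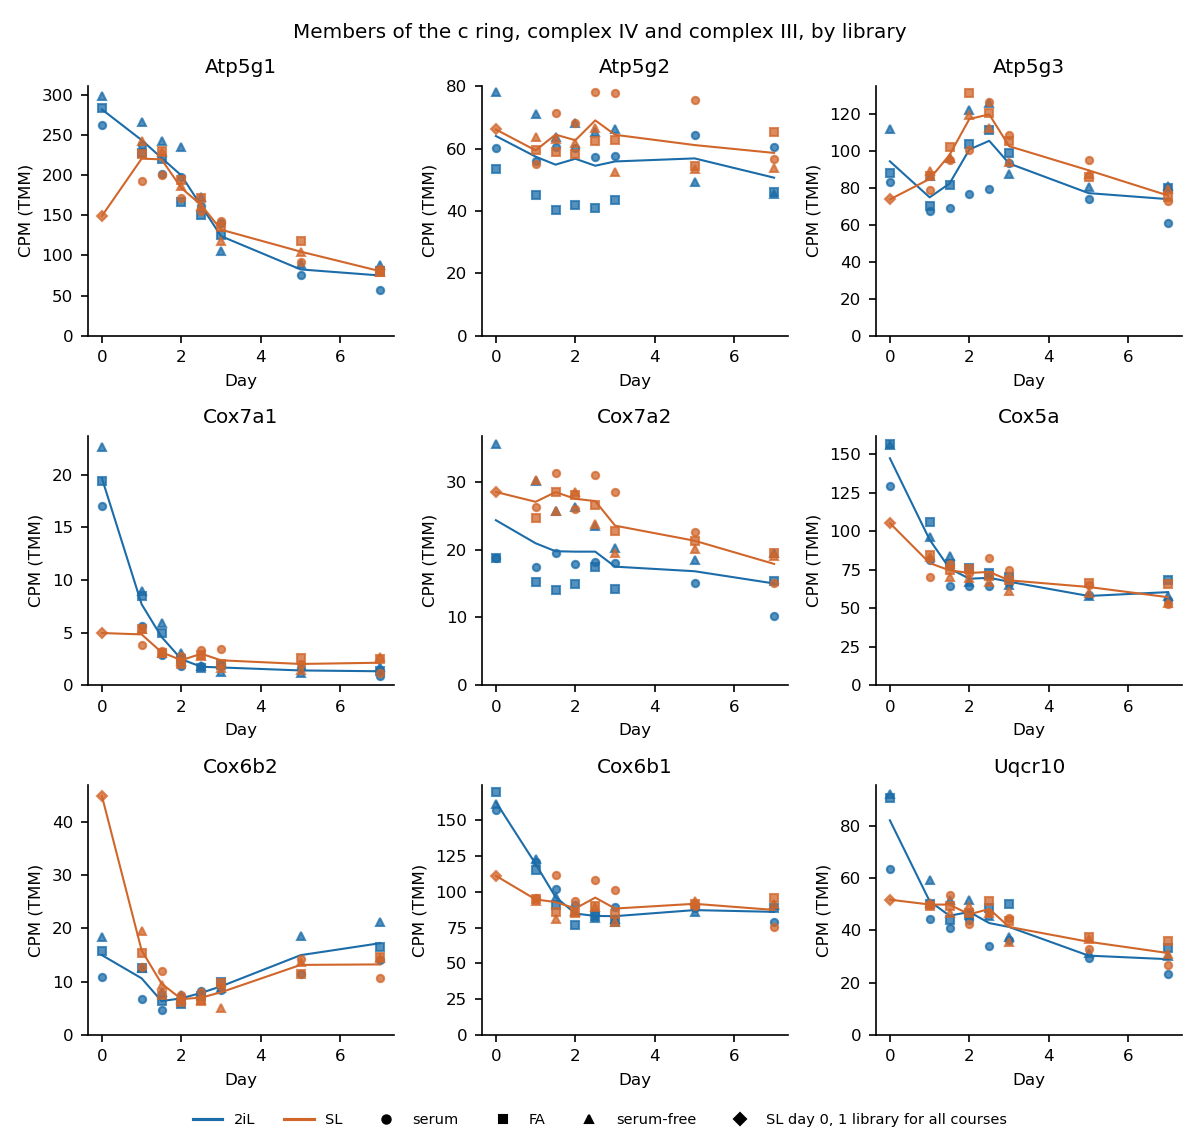
Level (vertical axis, TMM-scaled CPM) against the day for Atp5g1, Atp5g2, Atp5g3, Cox7a1, Cox7a2, Cox5a, Cox6b2, Cox6b1 and Uqcr10, with a point for each library and a line for the mean of each medium. In 2iL Atp5g1 goes from 263 to 299 CPM at day 0 to 56.6 to 88.2 CPM at day 7 and Cox7a1 from 17.0 to 22.6 CPM to 0.846 to 1.75 CPM, and Cox6b2 is highest in the SL library of day 0, at 44.8 CPM.

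Upstream sequences of the c-ring genes are shown because Atp5g1 had the largest change of the 3. RefSeq (GRCm38.p6) places the stretch for Atp5g1 at chr11:96075671-96075820 on the negative strand, which is the 150 bases just before the gene start in the files and 189 to 40 bases before the start in RefSeq, and none of the searched motifs is in it. For Atp5g2 the site at chr15:102671070-102671099, negative strand, holds the letters GCGCATGCG of the NRF1 motif, and for Atp5g3 the site at chr2:73911361-73911389, negative strand, holds AAGGTCA, a motif of estrogen-related receptors, on its other strand. Capitals mark the motif.
Atp5g1 upstream: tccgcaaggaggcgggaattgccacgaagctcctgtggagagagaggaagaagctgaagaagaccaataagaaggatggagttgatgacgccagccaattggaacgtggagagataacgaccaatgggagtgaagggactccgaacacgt
Atp5g2 site: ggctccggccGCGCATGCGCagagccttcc
Atp5g3 site: ttgttacaaagTGACCTTgagcgtcttcc

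The other parts of the synthase were lower too. Of the 5 genes of the F1 head, 3 were lower at day 7, where 29.9% of all genes were, and so were all 4 genes of the peripheral stalk (log2 changes -0.59 to -0.44) and all 3 of the small membrane subunits (-0.94 to -0.62). Atp5b, the catalytic β subunit, had 1958, 2379 and 2373 CPM at day 0 and 978, 1097 and 975 CPM at day 7, with no overlap (-1.07 ± 0.0889, adjusted p = 6.07e-08). The α subunit gene Atp5a1 had 1061, 1224 and 1252 CPM at day 0 and 670.5, 729 and 671 CPM at day 7 (-0.71 ± 0.0978, adjusted p = 1.24e-05). Atp5d and Atp5e, which encode the δ and ε subunits of the central stalk, had differences of -0.19 and 0.05 and were not called. Atp5s had 2.23, 1.93 and 2.69 CPM at day 0 and 4.38, 3.79 and 2.40 CPM at day 7 (0.70 ± 0.319, adjusted p = 0.0649), with overlap through the serum-free course.

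The members were also lower at day 7 than at day 1 in cells from SL. Of the 74, 48 were lower and none was higher, beside 29.9% of all genes lower, and the median log2 difference was -0.43 over the members and 0.01 over all genes. The counts were 23 lower at day 3 (19.6% of all genes lower) and 39 at day 5 (24.8%), both against day 1. By complex, 22 of 37 genes of complex I, 5 of 8 of complex III, 10 of 13 of complex IV and 11 of 16 of complex V were lower at day 7. Atp5g1 had the largest fall, from 193, 226 and 243 CPM at day 1 to 82.8, 79.5 and 78.7 CPM at day 7 (-1.45 ± 0.132, adjusted p = 6.97e-10), with no overlap. Cox7a1 went from 3.85, 5.34 and 5.30 CPM to 1.21, 2.53 and 2.68 CPM (-1.19 ± 0.319, adjusted p = 0.00221). Cox7c went from 191, 187 and 192 CPM to 82.1, 116 and 87.8 CPM (-0.99 ± 0.134, adjusted p = 4.81e-07). Of the transcript of Cox7c, 58.3% also matches other genes.

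The same days compared in 2iL, day 7 against day 1, share no library with SL. There, 49 members were lower and 4 higher, beside 30.4% of all genes lower and 33.8% higher. The higher ones were Atp5s (0.82), Cox6b2 (0.76), Cox7a2l (0.70) and Ndufb11 (0.42). Lower in both media were 42 members, which is 85.7% of the 49 from 2iL and 87.5% of the 48 from SL. The same overlap over all genes is not given here, so these shares show no agreement particular to the members. Pearson's r between the log2 differences of the media was 0.83 over the 74 members and 0.87 over 16115 genes, as a description across genes, which are not independent replicates. When the change from day 1 to day 7 was tested between the media, 0 members were called by edgeR, beside 3.22% of all genes. Unadjusted, 5 members had a p under 0.05 in this edgeR test. DESeq2 called 1 member, beside 492 of all genes higher and 345 lower. For Atp5g1 the difference between the changes was -0.26, with an approximate 95% interval from -0.62 to 0.10. For Cox7a1 it was -1.36 ± 0.449 (adjusted p = 0.0987).

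**Figure D4:**
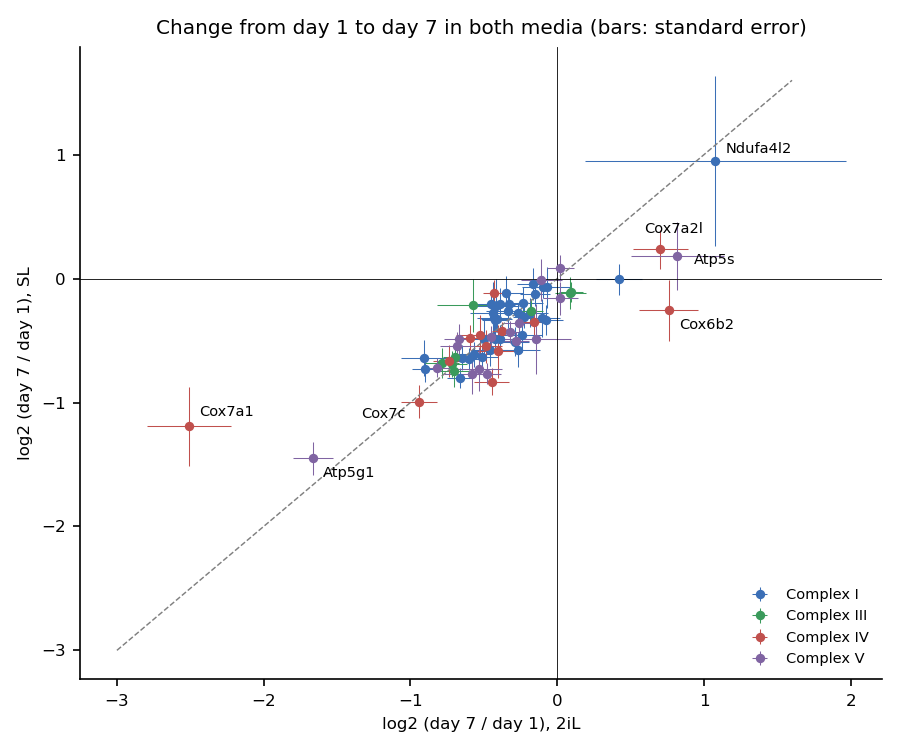
Log2 difference between day 7 and day 1 of each member in cells from SL (vertical axis) against the same difference in cells from 2iL (horizontal axis), with bars of 1 standard error and a dashed line where both are equal. Most of the 74 points lie in the lower left, 42 of them called lower in both media, and Atp5g1 and Cox7a1 are the lowest in both.

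At day 0, the 3 libraries in 2iL were set against the 1 library in SL, so the spread comes from 2iL alone. Of the members, 4 were higher and 3 lower in 2iL, beside 30.8% of all genes called in either direction, and the median was 0.12 over the members and 0.01 over all genes. The split moved with the scaling, to 2 higher and 6 lower with upper quartile factors, 2 and 4 with library totals and 5 and 2 with DESeq2. The split of all genes moved too, from 2012 higher and 2588 lower with TMM. Under these alternatives, in the same order, it was 1532 and 3075, 1624 and 2812, and 1961 and 1941. With the spread taken from all 45 libraries, 16 members were higher and 4 lower, and the share of all genes called in that fit is not given here. Cox7a1 was higher in 2iL, with 17.0, 19.4 and 22.6 CPM against 4.96 CPM in SL (1.93 ± 0.266, adjusted p = 0.000997), and so was Atp5g1, with 263, 284 and 299 against 149 CPM (0.87 ± 0.174, adjusted p = 0.00604). Atp5j2, the f subunit of the synthase, had 84.0, 101 and 109.9 against 60.7 CPM (0.64 ± 0.193, adjusted p = 0.0338). Cox6b1 was also higher (0.50 ± 0.162, adjusted p = 0.0453). Cox6b2 was lower in 2iL than in this 1 SL library, with 10.9, 15.7 and 18.3 against 44.8 CPM (-1.65 ± 0.249, adjusted p = 0.00157). Atp5s (-1.34 ± 0.352, adjusted p = 0.0195) and Ndufb3, an accessory subunit of complex I (-0.56 ± 0.185, adjusted p = 0.049), were lower in 2iL too. The calls of Cox6b1 and Ndufb3 were lost without the serum or the FA library (adjusted p from 0.0628 to 0.0976). Per length, Cox6b2 made up 34.9% of its pair in the SL library and 18.1% at day 1 from SL.

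From day 1 on, the origin of the cells went with small differences. Averaged over days 1 to 7, 13 members were lower and 2 higher from 2iL than from SL, beside 37.0% of all genes called in either direction, and the median was -0.04. Cox7a2 was lower by the most (-0.44 ± 0.0832, adjusted p = 0.000124), with course values of -0.62 in serum, -0.71 in FA and -0.02 in serum-free. Ndufs5 (-0.29 ± 0.0836, adjusted p = 0.00749), an accessory subunit of complex I on the intermembrane side, and Cox5b (-0.20 ± 0.0407, adjusted p = 0.000328), the zinc-binding subunit of complex IV, were the next named. Ndufs1, the largest iron-sulphur subunit of complex I, was higher (0.09 ± 0.0314, adjusted p = 0.0208). The 13 lower members were all below 0 in serum (median -0.27) and in FA (median -0.29). In serum-free 8 of 13 were below 0, and the median was -0.02. These 13 were called on their mean over the same courses, so that choice largely set their signs and medians in serum and FA. Over all members the median was -0.10 in serum, -0.04 in FA and 0.03 in serum-free. Over all genes it was 0.003, 0.0008 and 0.006 in the same order. Without FA only 3 members were lower and without serum 7, and the shares of all genes called in these fits are not given here. The calls of Ndufs5 (adjusted p = 0.318), Cox5b (0.0605) and Ndufs1 (0.362) were lost without FA. At single days, Cox6b1 and Ndufa8 were higher from 2iL at day 1 (14% of all genes called in either direction), and Cox4i1 was lower at day 2 (8.22%). No member was called at days 1.5 (12.2%), 2.5 (2.37%), 3 (0.559%), 5 (0.134%) or 7 (0.0911%). Few genes of any kind were called on the later days, so the lack of calls there is not read as a trait of the members.

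The courses were compared at days 5 and 7 over both media, with 11 libraries. Between serum and FA no member was called by edgeR (10 had an unadjusted p under 0.05), beside 2.69% of all genes in either direction. DESeq2 called 2 members, beside 743 of all genes higher and 879 lower. Between FA and serum-free none was called by edgeR either (9 unadjusted), beside 16.2% of all genes in either direction. There DESeq2 called 5 members, beside 1729 of all genes higher and 2007 lower. Serum was lower than serum-free for 6 members and higher for none (2 higher with an unadjusted p under 0.05), beside 15.7% of all genes lower and 13.1% higher. DESeq2 called 11 lower and 1 higher, beside 2904 of all genes lower and 2454 higher. With library totals 4 were lower and 3 higher, beside 1948 of all genes lower and 2714 higher. For Atp5g1, the difference of serum from FA was -0.25 (approximate 95% interval -0.51 to 0.02), and that of FA from serum-free was -0.02 (-0.28 to 0.25).

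Among the 6, Ndufa1, a membrane-arm subunit of complex I, had 9.62 and 8.66 CPM in serum from 2iL at days 5 and 7 and 17.3 and 16.1 CPM in serum-free. From SL it had 12.2 and 9.71 CPM in serum and 17.9 and 15.7 CPM in serum-free, so every serum library was below every serum-free one (-0.76 ± 0.12, adjusted p = 0.00482). Ndufs5 had 4.37 and 5.10 CPM in serum from 2iL, 5.87 and 4.32 CPM in serum from SL, and 7.58 to 9.67 CPM in serum-free (-0.80 ± 0.206, adjusted p = 0.0242). Cox6a1 had 46.7 to 68.3 CPM in serum and 68.6 to 89.8 CPM in serum-free (-0.55 ± 0.138, adjusted p = 0.0218). Ndufa13 (-0.42), Ndufa3 (-0.34) and Atp5j2 (-0.34) were the remaining ones. Leaving out 1 day of 1 medium took the count to 1 or 2, and the shares of all genes called in those fits are not given here. Neural markers summed to 99.97 to 262 CPM in serum and to 401 to 666 CPM in serum-free on these days, and of the 96 cytosolic ribosomal protein genes tested in this fit (of 97 listed) 60 were higher and 2 lower in serum. The part of these in the result was not tested.

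Other genes of mitochondrial energy metabolism were counted in the same fit of day 7 against day 0 in 2iL, where 29.9% of all genes were lower and 33.8% higher. Of the 13 mRNAs of the mitochondrial genome, none was called at day 1 (median -0.03) and all 13 were lower at day 7 (median -1.43). From SL all 13 were lower at day 7 than at day 1 (median -1.02). Of complex II, the 4 genes of succinate dehydrogenase, 3 were lower at day 7 (median -0.29), and of 14 genes of the TCA cycle 11 were lower and 2 higher (median -0.38). Of the genes that assemble the chain, 6 of 14 were lower for complex I, 1 of 6 for complex III, 7 of 21 for complex IV and 1 of 3 for complex V, while 0, 1, 3 and 1 were higher. Cycs, which encodes cytochrome c, and Ndufab1, the acyl carrier protein, were not called (-0.09 and -0.12). Among 18 genes of glycolysis and glucose uptake 7 were lower and 4 higher (median -0.01). Of the mitochondrial ribosomal protein genes, 49 of 77 were lower and 4 higher (median -0.41), and of the cytosolic ones 42 of 97 were lower and 2 higher (median -0.32). The medians are read beside the 0.04 of all genes.

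**Figure D5:**
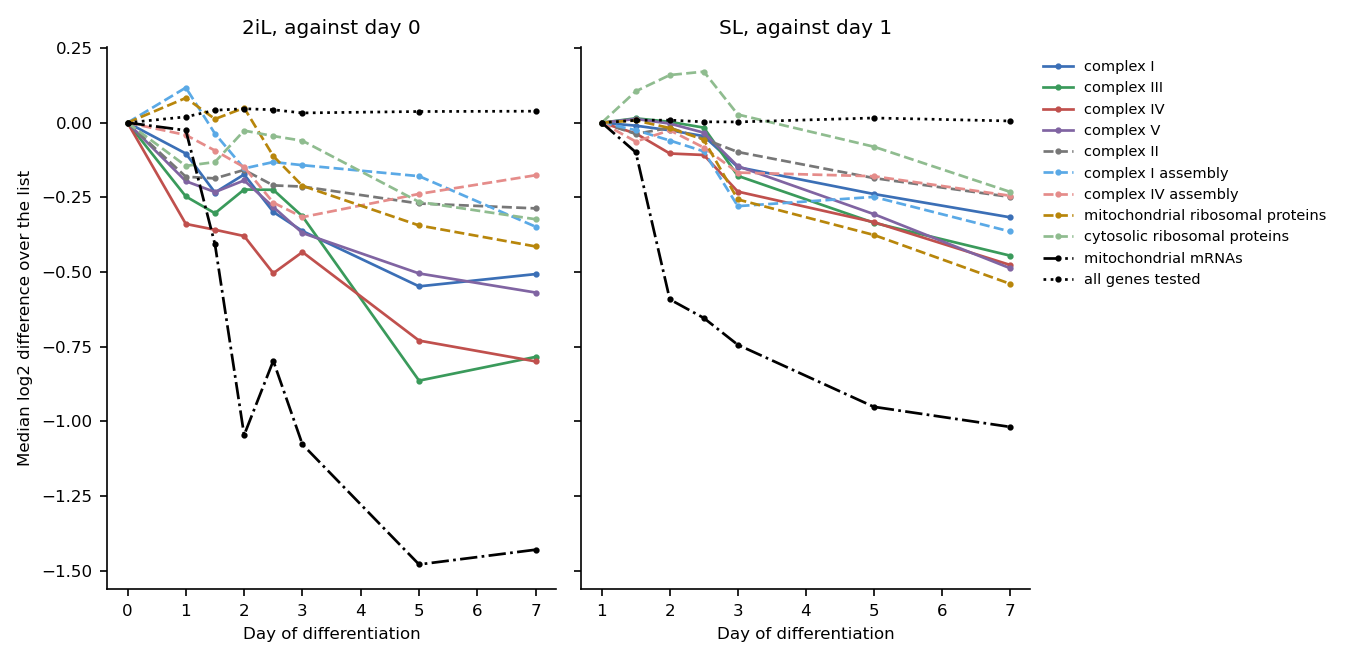
Median log2 difference (vertical axis) of each complex, of other gene lists and of all genes tested against the day, from day 0 in cells from 2iL (left) and from day 1 in cells from SL (right). In 2iL complexes I, III, IV and V end at -0.51, -0.78, -0.80 and -0.57, the mitochondrial mRNAs at -1.43 and all genes at 0.04.

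Of 15 regulators of mitochondrial transcription and biogenesis, 6 were lower and 3 higher at day 7, beside 29.9% and 33.8% of all genes. The lower ones were Gabpa (-1.30), a subunit of the ETS-family factor GABP, the coactivator Pprc1 (-0.997), the mitochondrial RNA polymerase Polrmt (-0.71), Tfb2m (-0.63), which opens mitochondrial promoters, Nrf1 (-0.32) and the estrogen-related receptor Esrrb (-6.20), which is also 1 of the 8 naive markers. The higher ones were Ppargc1a (4.49), Esrrg (7.35) and Myc (3.14). Tfam, which packages mitochondrial DNA, had a difference of -0.12 and Yy1 of 0.00, and neither was called. At day 1 Myc was already higher (4.21) and Esrrb lower (-1.48).

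Promoters of the members were searched for 4 short motifs, in windows of 250 bases before to 50 bases after the RefSeq start, on both strands. A promoter was given for 61 of the 74 members. GCGCATGCG, the NRF1 motif, was in 8 of the 61 (13.1%) and in 1.95% of 27025 genes with a promoter, and AAGATGGCG, the YY1 motif, was in 7 (11.5%) against 1.64%. CCGGAAGT, the ETS motif bound by GABP, was in 5 (8.20%) against 4.31%, and AAGGTCA in 7 (11.5%) against 5.38%. At least 1 of the 4 was in 24 members (39.3%) and in 12.6% of all genes. The median log2 change from day 0 to day 7 in 2iL was -0.53 in the members with any of the motifs and -0.59 in those with none. It was -0.74 with and -0.55 without the NRF1 motif, and -0.50 with and -0.59 without the YY1 motif. These are descriptions, and a match is not a bound site.

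Sites from members of each complex are printed to show the motifs in place, with the motif in capitals, read 5′ to 3′ along the gene, and a motif on the other strand appears as its reverse complement. The NRF1 sites are those of Ndufa8 (chr2:36049329-36049357, negative strand), the gene that was higher at day 1, of Uqcrc1 (chr9:108936668-108936697, positive strand) and of Cox6a1 (chr5:115349101-115349130, negative strand), which both fell. The YY1 sites are those of Ndufc1 (chr3:51408915-51408943, negative strand) and Atp5j2 (chr5:145191500-145191528, negative strand), 22 and 23 bases after the start. The ETS sites are those of Uqcrh (chr4:116075063-116075092, negative strand) and Cox8a (chr19:7217604-7217633, negative strand). Coordinates are on GRCm38.p6.
Ndufa8 NRF1: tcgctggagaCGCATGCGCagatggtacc
Uqcrc1 NRF1: actccgctctGCGCATGCGCagcgcggctc
Cox6a1 NRF1: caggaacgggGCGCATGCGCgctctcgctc
Ndufc1 YY1: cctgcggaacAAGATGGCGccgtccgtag
Atp5j2 YY1: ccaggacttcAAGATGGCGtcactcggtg
Uqcrh ETS: gagtatgccgcACTTCCGGccaggtcgccg
Cox8a ETS: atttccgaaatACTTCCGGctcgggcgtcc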

How the data were processed

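Strand-specific RNA-seq of 45 libraries was analysed. The authors trimmed reads with TrimGalore, mapped them to GRCm38 (mm10) with TopHat2 and counted them with featureCounts, and deposited raw counts per gene on each strand, with no normalization. DESeq2 is named in the submitters' processing notes, and tool versions are not given in the sources used here. If, as by default, featureCounts kept only uniquely mapped reads, members with near-identical copies lose reads: 34 of the 74 match another gene over at least 100 bases at 95% identity, and in 14 at least 50% of the main transcript is covered (Ndufs3, Ndufs5, Ndufs6, Ndufb11, Uqcrb, Cox7c and 8 Atp5 genes). Rows without a symbol, 435 tRNA genes, took at most 0.0014% of counts and were left out.

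The members and lists were chosen with earlier results of these data known. TMM factors, CPM and quasi-likelihood fits were computed with R 4.3.3 and edgeR 4.0.16, after filterByExpr, which all 74 members passed in every comparison. Days in 2iL were fitted over 23 libraries with day and course, days in SL and media over 41 libraries from day 1 on with course and medium by day, day 0 over 4 libraries, and courses over the 11 libraries of days 5 and 7 with medium by day as the block. P-values were adjusted by Benjamini-Hochberg over all genes tested, with a threshold of 0.05. The course in the sample titles pairs the libraries, so it was a block in the fits of days and media. Over 198 pairs of libraries of the same course and medium the deviations from the day means correlated with a mean r of 0.324 (178 pairs above 0.1, lowest 0.00725), against -0.157 over 396 pairs of different courses. No 2 libraries of a group agreed within counting noise. Log2 values per course have a pseudocount of 0.1 CPM. Levels of different genes were compared per kilobase of the main transcript, as the counts are not corrected for length. Motifs were searched in RefSeq promoters, and 13 members without an entry were not searched. Intervals cover 95% and are approximate. The fits were tested on simulated data.

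The genes named were, for each comparison, the members called with 1 sign in every course that rose most or fell most (at most 3 each way), the tissue-restricted forms and their partners, the c-ring genes, and the highest and lowest gene per length of each complex. Others were named after their values were seen. Alternatives were DESeq2 1.42.0, other size factors, library totals, no filter, no block, fewer libraries in the fit and each course left out in turn. Day 1 as the reference in 2iL and the joined length of all exons were chosen after seeing the data.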

Additional observations from a re-analysis of the deposited data

Results flagged for a closer look

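Cox6b2 moved in opposite directions from day 1 to day 7 in every course of the 2 media. The mean log2 change over the courses was 0.73 from 2iL and -0.25 from SL. The levels at day 1 were 6.67, 12.6 and 12.5 CPM from 2iL and 12.7, 15.4 and 19.5 CPM from SL, and at day 7 they were 14.01, 16.5 and 21.1 CPM from 2iL and 10.7, 14.5 and 14.4 CPM from SL. In the test of the difference between the changes, the log2 value was 0.96 ± 0.345 and edgeR gave an adjusted p of 0.134, so the difference did not pass the threshold.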

How the results depend on the processing

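The count of lower members at day 7 in 2iL and that from SL stayed within 1.5 times under every alternative run. The median of the members less that of all genes was -0.60 and -0.43 under each of the 5 scalings. Other size factors shift all genes nearly alike, so this difference could hardly move and is no test of the scaling. With upper quartile factors the all-gene median was 0.11 at day 2 and -0.12 at day 0 between media, and with library totals it was 0.10 at day 7 and 0.11 between serum and serum-free. At day 0 the member median between media reversed with upper quartile factors, from 0.12 to -0.0059. Its distance from all genes, which size factors can hardly change, was 0.11.

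Without the block of courses, 11 members were lower and 0 higher at day 1 in 2iL, 6 were lower and 1 higher from 2iL than from SL over days 1 to 7, and, without the block of medium and day, 1 was higher in serum than in serum-free. With no filter 14 were lower at day 1. With library totals 16 were lower at day 1, 2 higher at day 7 in 2iL, 1 higher between media over days 1 to 7, 2 higher at day 0 between media, and 3 higher in serum and 3 in FA than in serum-free. With upper quartile factors 14 were lower at day 1, 1 was higher between media over days 1 to 7, 6 were lower and 2 higher at day 0 between media, and 1 was higher in serum and 1 in FA than in serum-free. DESeq2 called 1 lower in the difference between media of the changes, 2 lower in serum than in FA, 11 lower and 1 higher in serum than in serum-free, and 1 lower and 4 higher in FA than in serum-free. With the spread from all 45 libraries 16 were higher in 2iL at day 0. The calls over all genes moved with the scaling as well. At day 1 in 2iL, 2278 of all genes were lower with TMM, 2136 with library totals and 2106 with upper quartile factors.

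Leaving out 1 course gave 4 to 19 lower and 0 to 1 higher at day 1, 14 to 30 lower at day 2 and 0 to 2 higher at day 7 in 2iL, 0 to 1 higher at day 7 from SL, 3 to 17 lower and 0 to 4 higher between media over days 1 to 7, and 2 to 7 lower between media at day 0. Leaving out 1 day of 1 medium gave 1 to 2 lower and 0 to 3 higher in serum than in serum-free. From library totals, the log2 ratios of the summed levels at day 7 were -0.45, -0.60, -0.60 and -0.78 for complexes I, III, IV and V. With the joined length of all exons, chosen after seeing the data, the highest and lowest members differed 27.7 times in complex I, 15.9 in complex III and 268 in complex V. Of 196 counts under alternatives 154 stayed within 1.5 times, and of 440 values of single genes 395 kept their direction and side of the threshold, 43 lost the call and 2 gained it, and none reversed. The cause of these shifts was not tested. For the fits without a course, a day or the block, the shares of all genes called are not given here. Genes near 3 counts, such as Ndufa4l2 and Cox7b2, are limited by depth.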
